A study of Mus musculus with 9 samples.

Results

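Of the 32035 genes measured by RNAseq in whole mouse testis, 10 were examined here as a set of meiotic division cyclins, kinases and a phosphatase. They were chosen by name, with earlier results of these data known. The set comprises the A-type cyclins Ccna1 and Ccna2, the B-type cyclins Ccnb1, Ccnb2 and Ccnb3, the cyclin-dependent kinases (CDKs) Cdk1 and Cdk2, the CDK-activating phosphatase Cdc25c, the polo-like kinase Plk1 and the Aurora kinase Aurkc. Testes came from 3 WT, 3 Kpna6 ΔIBB/ΔIBB and 3 Kpna6-/- male mice of 15 weeks on the C57Bl6/N strain, to which both mutant lines had been backcrossed. Kpna6, also called importin α7, is an adaptor that carries proteins into the nucleus. The Kpna6 ΔIBB/ΔIBB allele lacks an exon and encodes a truncated protein without the importin β binding domain. The Kpna6-/- allele holds a gene trap in an early intron, but according to the study's text a germ cell promoter downstream of the trap still yields full-length protein in developing sperm and not in Sertoli cells, so that this line is no null for the whole testis. The labels give a replicate number to each testis and no litter or batch, and p-values therefore measure the spread between these samples.

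A cyclin has no catalytic activity of its own and switches on the CDK it binds. In male meiosis, cyclin A1 with CDK partners acts in late spermatocytes, and B-type cyclins with CDK1 form the complex that brings about entry into the meiotic divisions. CDC25 phosphatases remove inhibitory phosphates from CDK1, PLK1 acts on centrosomes, spindle and kinetochores, and AURKC is a germ cell Aurora kinase of the chromosomal passenger complex. CDK2 sits on the chromosomes of prophase spermatocytes, including their telomeres. In bulk tissue, fewer cells of a type and less RNA per cell cannot be told apart.

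All 10 genes were detected in all 9 testes, and their order by mean TPM was the same in the 3 groups. On the TPM scale, a level per transcript length that can be compared between genes, WT testes held most Ccna1, with 153 ± 8.57 TPM (SD, n = 3). Ccnb2 followed at 127 ± 3.3 TPM, and the next gene, Cdk1, stood at 54.5 ± 1.86 TPM (SD, n = 3 each). Ccnb1 had 45.5 ± 2.71 TPM, Plk1 44 ± 3.92 TPM and Cdk2 41 ± 1.8 TPM (SD, n = 3 each). The ranges of Ccnb1 and Plk1 overlapped in WT, as did those of Plk1 and Cdk2, so the order among these genes is not resolved. Every other pair of neighbours was apart on the TPM scale. The lead of Ccna1 over Ccnb2 depended on short transcripts. Counts scaled to library size (CPM) were 131, 129 and 116 for Ccna1 in WT, and 134, 141 and 130 for Ccnb2. Ccna1-203, Ccna1-205 and Ccna1-206 held 11.8, 35.8 and 15.4 TPM on average in WT. They have 876, 749 and 391 bases, against 1541 for the only Ccnb2 transcript. The place of Cdk1 in turn depended on transcripts that the annotation marks as retaining an intron. Its coding transcripts alone summed to 25.8 ± 1.9 TPM in WT. This was below the coding transcripts of Ccnb1 (40.9 ± 3.88 TPM), Plk1 (43.8 ± 3.89 TPM) and Cdk2 (41 ± 1.8 TPM; SD, n = 3 each). Aurkc had 24.4 ± 0.808 TPM and Cdc25c 15.6 ± 1.71 TPM, and Ccna2, the A-type cyclin of mitotic cells, reached 5.5 ± 0.239 TPM (SD, n = 3 each). Ccnb3, a B-type cyclin gene on the X chromosome, was lowest at 1.16 ± 0.0382 TPM (SD, n = 3). Its level was below that of Ccnb2 in all 9 samples.

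The libraries held between 24859751 and 31484692 counts on genes. Kpna6 itself, given as CPM (counts scaled to library size after TMM normalization), stood at 201, 325 and 334 in WT, at 81.2, 85.3 and 81.8 in Kpna6 ΔIBB/ΔIBB and at 247, 249 and 262 in Kpna6-/- testes. It was lower than WT in Kpna6 ΔIBB/ΔIBB testes (log2 fold change -1.79 ± 0.15 SE, edgeR's quasi-likelihood test, adjusted p = 1.94e-05), while the Kpna6-/- samples lay within the WT range (-0.18 ± 0.14, adjusted p = 0.586). The latter difference was called when WT replicate 1 was left out (-0.38, adjusted p = 0.000345). Kpna6 ΔIBB/ΔIBB replicate 3 stood apart through 2 epididymal transcripts, with Crisp1 at 77 TPM and Adam7 at 6.99 TPM, against at most 4.23 and 0.169 TPM in the other testes, while Lcn5 was listed at 0 in all 9. Germ cell and somatic markers were present in every group.

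In Kpna6 ΔIBB/ΔIBB testes the division genes stayed close to WT. Of the 10 genes, Cdk1 rose and the other 9 did not pass the test, when 36.6% of all 18797 genes tested did (17.7% higher and 18.9% lower). Without adjustment, 3 of the 10 had a p below 0.05 in edgeR's test, as did 8623 of all 18797 genes. The median absolute log2 fold change of the 10 genes was 0.12, beside 0.22 over all genes, and the widest of the 10 was 0.26. Their signed median was 0.02. With the scaling used in this test, the CPM of the groups did not overlap for 5 of the 10 genes, against 49.9% of all genes. Of the 5, 3 were higher (25.3% of all genes) and 2 lower (24.7%).

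Cdk1, the catalytic kinase of the B-type cyclin complexes, had 26.6, 27.2 and 26.1 CPM in WT, 30.6, 29.7 and 31.3 CPM in Kpna6 ΔIBB/ΔIBB and 29.8, 30.4 and 28.3 CPM in Kpna6-/- testes. All 3 samples of each mutant line were above all 3 WT samples, and the lines overlapped each other. In Kpna6 ΔIBB/ΔIBB the log2 fold change was 0.20 ± 0.06 SE (1.15-fold, 95% interval 1.06 to 1.25, edgeR adjusted p = 0.0165). The call was lost without WT replicate 3 (0.19, adjusted p = 0.0518) and without Kpna6 ΔIBB/ΔIBB replicate 3, the sample with epididymal transcripts (0.19, adjusted p = 0.0504). It was also lost with length-scaled counts (0.15, adjusted p = 0.145), and was kept in 14 of 17 alternatives. Among the 14, the sum of near-identical genes left the counts of Cdk1 unchanged. In Kpna6-/- the difference from WT was 0.15 ± 0.06 (95% interval 0.02 to 0.28), and did not pass edgeR's test after adjustment (unadjusted p = 0.0275, adjusted p = 0.268). Between the mutant lines Cdk1 differed by 0.04 (95% interval -0.07 to 0.16, edgeR adjusted p = 0.578).

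**Figure D1:**
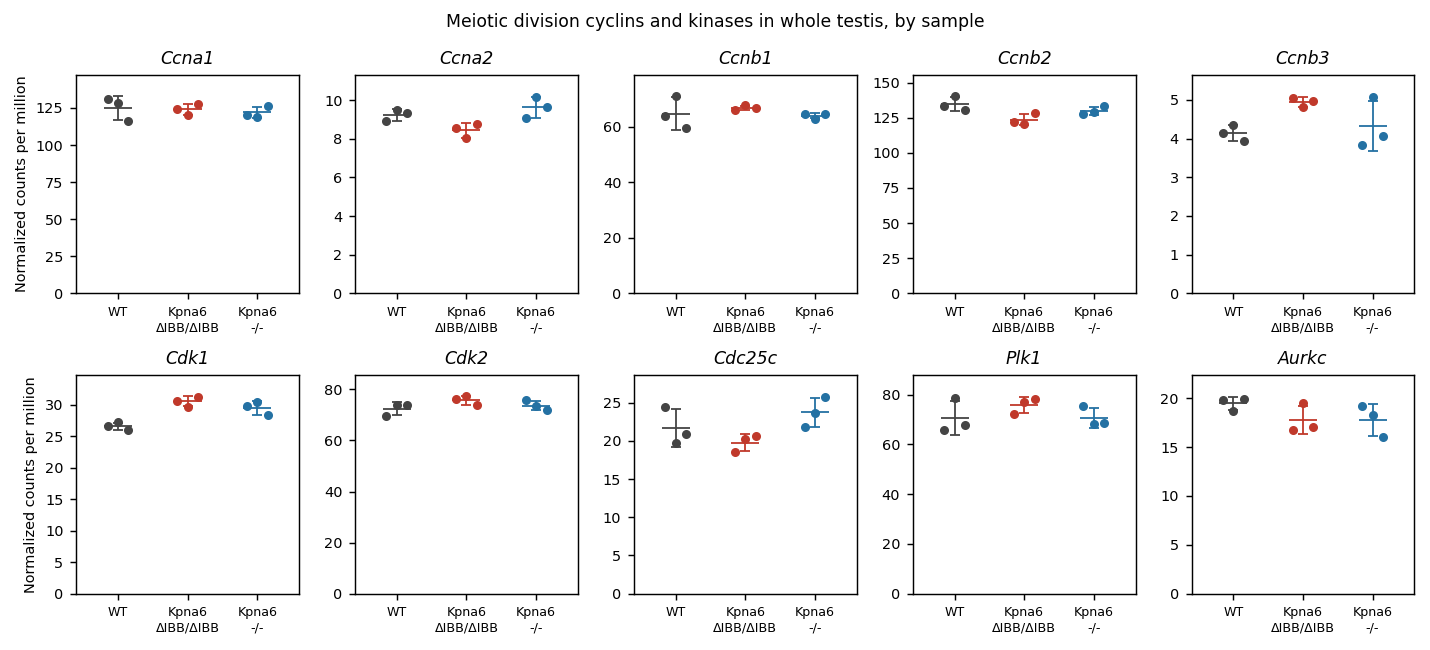
Normalized CPM (linear axis from 0) of the 10 division genes in each testis, as dots by group, with the mean and SD of 3 samples. The Cdk1 samples of both mutant lines, from 28.3 to 31.3 CPM, sit above the WT samples at 26.1 to 27.2 CPM, and most other panels overlap.

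Cdk2, the other kinase of the set, ranged from 69.4 to 74 CPM in WT, from 73.9 to 77.3 CPM in Kpna6 ΔIBB/ΔIBB and from 71.9 to 75.6 CPM in Kpna6-/- testes. With all 9 samples scaled together the first 2 ranges touched, and they were apart only when those 6 samples were scaled alone. Its log2 fold changes against WT were 0.07 (95% interval -0.04 to 0.17) in Kpna6 ΔIBB/ΔIBB and 0.02 (95% interval -0.08 to 0.12) in Kpna6-/-, and neither passed the test (edgeR adjusted p = 0.285 and 0.873).

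Among the cyclins, none passed the test in any comparison. Ccnb2, the most abundant B-type cyclin, had 134, 141 and 130 CPM in WT, 122, 121 and 128 CPM in Kpna6 ΔIBB/ΔIBB and 127, 129 and 133 CPM in Kpna6-/- testes. The Kpna6 ΔIBB/ΔIBB samples lay below the WT samples by a narrow gap, and the Kpna6-/- samples overlapped both. The log2 fold change in Kpna6 ΔIBB/ΔIBB was -0.12 ± 0.05 SE (95% interval -0.22 to -0.02, edgeR adjusted p = 0.0566). It crossed the threshold with DESeq2 (-0.13, adjusted p = 0.0447), with all 9 samples in 1 fit and with DESeq2's size factors, and also without Kpna6 ΔIBB/ΔIBB replicate 3 (-0.15, adjusted p = 0.0447). These were 4 of 17 alternatives. The difference was -0.02 with library size only (edgeR adjusted p = 0.694) and 0.00 with limma on log2(TPM + 1) (adjusted p = 0.959).

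Ccnb3, a B-type cyclin with a long protein that is made in early meiotic prophase, had 4.15, 4.35 and 3.93 CPM in WT, 5.05, 4.81 and 4.97 CPM in Kpna6 ΔIBB/ΔIBB and 3.84, 5.06 and 4.07 CPM in Kpna6-/- testes. Kpna6 ΔIBB/ΔIBB samples were all above WT, and 1 Kpna6-/- sample reached as high. At 0.26 ± 0.12 SE, its log2 fold change against WT in the truncated line was the widest of the 10 genes and had the widest interval (0.00 to 0.52, edgeR adjusted p = 0.107). Ccnb3 was also the gene with the lowest level in the set.

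Ccnb1, the other B-type cyclin of the division complex, ranged from 59.4 to 71.1 CPM in WT and from 66.1 to 67.7 CPM in Kpna6 ΔIBB/ΔIBB testes, inside the WT range (log2 fold change 0.05, 95% interval -0.09 to 0.19, edgeR adjusted p = 0.564). Ccna1, the germ cell A-type cyclin, had 131, 129 and 116 CPM in WT, 124, 120 and 128 CPM in Kpna6 ΔIBB/ΔIBB and 121, 119 and 126 CPM in Kpna6-/- testes. The 3 groups overlapped, and the interval of its log2 fold change ran from -0.12 to 0.11 in Kpna6 ΔIBB/ΔIBB (adjusted p = 0.921) and from -0.15 to 0.07 in Kpna6-/- (adjusted p = 0.787, edgeR for both). Ccna2 ranged from 8.9 to 9.49 CPM in WT, from 8.02 to 8.75 CPM in Kpna6 ΔIBB/ΔIBB and from 9.09 to 10.2 CPM in Kpna6-/- testes. Kpna6 ΔIBB/ΔIBB was below both other groups without overlap, but neither difference passed (against WT -0.13, edgeR adjusted p = 0.309). The 3′ end of Ccna2 overlaps the gene Exosc9 over 431 bases, the library kit did not mark strand. With the counts of both genes summed the difference from WT was 0.01, but Exosc9, at 658 to 839 counts a library against 223 to 314 for Ccna2, made up most of that sum.

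The phosphatase gene Cdc25c had 24.5, 19.8 and 20.9 CPM in WT, 18.6, 20.2 and 20.6 CPM in Kpna6 ΔIBB/ΔIBB and 21.9, 23.6 and 25.7 CPM in Kpna6-/- testes. WT overlapped both lines, and the 2 lines did not overlap each other. Against WT, the log2 fold change was -0.13 (95% interval -0.32 to 0.07) in Kpna6 ΔIBB/ΔIBB and 0.13 (95% interval -0.07 to 0.32) in Kpna6-/-, neither past the test (edgeR adjusted p = 0.283 and 0.562). Plk1, from 65.8 to 78.5 CPM in WT and from 72.3 to 78.4 CPM in Kpna6 ΔIBB/ΔIBB, differed by 0.11 (95% interval -0.04 to 0.26, edgeR adjusted p = 0.235), a difference that was called without WT replicate 2 (0.19, adjusted p = 0.0391). Aurkc ranged from 18.7 to 20 CPM in WT, from 16.8 to 19.5 CPM in Kpna6 ΔIBB/ΔIBB and from 16 to 19.2 CPM in Kpna6-/- testes, at -0.13 on the log2 scale in each line (edgeR adjusted p = 0.237 and 0.493). Reads of Aurkc can be shared with Gm12463, a copy with 99.2% identity over 849 bases that held 51 to 113 counts a library.

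Kpna6-/- testes were compared with the same WT samples. Of the 10 genes, 0 passed edgeR's test in this comparison (and 0 with DESeq2), when 1.6% of all 18681 genes tested did (0.889% higher and 0.712% lower). Cdk1 alone had an unadjusted p below 0.05, as did 2778 of all 18681 genes. Cdk1 alone also did not overlap WT, against 20% of all genes (10% higher and 9.98% lower). The median absolute log2 fold change was 0.06 over the 10 genes and 0.09 over all genes. No 95% interval of a fold change reached above 1.29 (Ccnb3) or below 0.811 (Aurkc). In Kpna6 ΔIBB/ΔIBB the corresponding bounds were 1.43 (Ccnb3) and 0.794 (Ccna2).

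**Figure D2:**
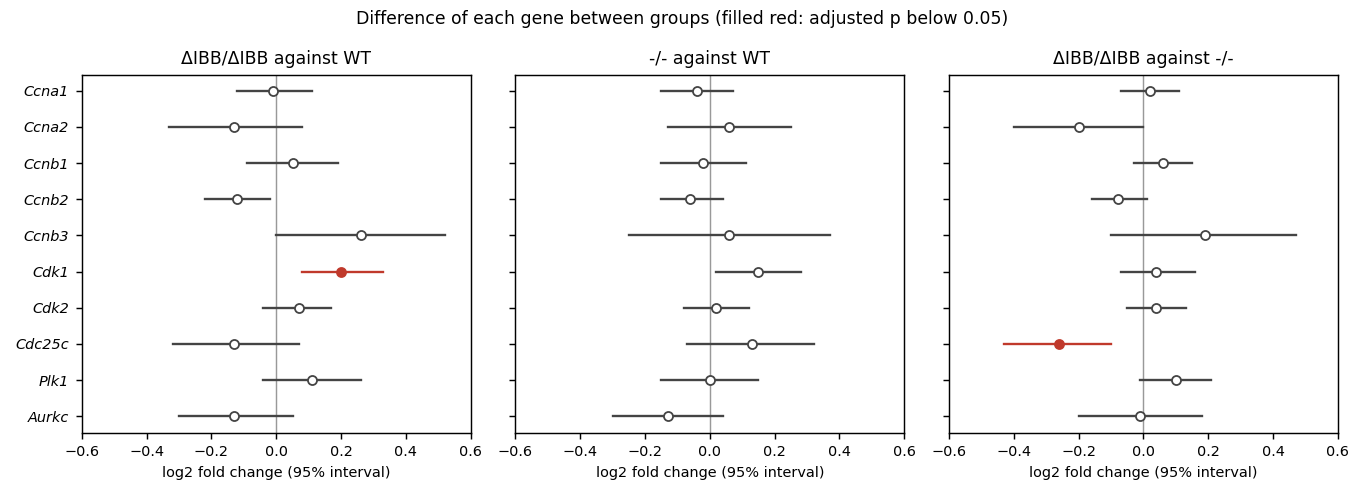
Log2 fold change (dots) and 95% interval (lines) of the 10 division genes in each of the 3 comparisons, from edgeR's quasi-likelihood fit with 3 samples per group, filled red where the adjusted p was below 0.05. Cdk1 in Kpna6 ΔIBB/ΔIBB against WT (0.20) and Cdc25c between the lines (-0.26) are filled, and most intervals cross 0.

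Between the mutant lines 1 gene of the 10 passed, Cdc25c, which was lower where Kpna6 was truncated, when 30.3% of all 18752 genes tested did (13.5% higher and 16.8% lower). Its log2 fold change was -0.26 ± 0.07 SE (0.832-fold, 95% interval 0.744 to 0.931, edgeR adjusted p = 0.0183). The call was lost without Kpna6-/- replicate 2 (-0.27, adjusted p = 0.0539), Kpna6-/- replicate 3 (-0.21, adjusted p = 0.0837) or Kpna6 ΔIBB/ΔIBB replicate 1 (-0.22, adjusted p = 0.0689). It was kept in 10 of 17 alternatives. Among the 10, coding transcripts alone and the sum of near-identical genes left the counts of Cdc25c unchanged. Scaling ended the call too, with library size only (-0.17, edgeR adjusted p = 0.105), limma on log2(TPM + 1) (-0.11, adjusted p = 0.291) or log2(TPM + 0.1) (-0.12, adjusted p = 0.284), and length-scaled counts (-0.25, adjusted p = 0.0633). In the same comparison, 4 of 8 pachytene to diplotene markers were called lower in Kpna6 ΔIBB/ΔIBB, and all 8 lay below 0 (median -0.10). All 8 round spermatid markers (-0.39) and all 8 elongating spermatid markers (-0.42) were lower too, and all 10 Sertoli cell markers were higher (0.37). The part of these cell types in the difference of Cdc25c was not tested. Ccna2 (-0.20, edgeR adjusted p = 0.123) and Cdc25c lay lower and Ccnb1 higher (0.06, adjusted p = 0.302) without overlap between the lines, against 44.4% of all genes (21.4% higher and 23.1% lower). The remaining 7 genes overlapped, with log2 fold changes from -0.08 for Ccnb2 to 0.19 for Ccnb3.

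Which genes were called depended on how the libraries were scaled to each other. The TMM factors lay between 0.965 and 0.985 in the WT and Kpna6-/- libraries and between 1.04 and 1.05 in the Kpna6 ΔIBB/ΔIBB libraries. Scaled by library size alone, the median of all genes moved from 0.009 to 0.107 on the log2 scale for Kpna6 ΔIBB/ΔIBB against WT, and the calls over all genes went from 3327 higher and 3547 lower to 5416 higher and 2326 lower. Between the lines the median moved to 0.105, and 2523 higher and 3150 lower genes became 4931 and 2016. On that scale 4 of the 10 genes were called against WT, namely Ccnb3 (0.36), Cdk1 (0.30), Cdk2 (0.17) and Plk1 (0.21), all higher. Limma on log2(TPM + 1) called Ccnb1 (0.23), Cdk1 (0.26), Cdk2 (0.20) and Plk1 (0.24), and Ccna1, Ccna2 and Aurkc turned from below to above 0 on that scale. Over all 18797 genes tested, this fit called 3925 higher and 1622 lower. Between the lines, library size only called Ccna1 (0.12), Ccnb1 (0.16), Cdk2 (0.14) and Plk1 (0.20), and limma on log2(TPM + 1) called Ccna1 (0.17), Ccnb1 (0.19), Cdk1 (0.20), Cdk2 (0.19) and Plk1 (0.25), all higher in Kpna6 ΔIBB/ΔIBB, and neither called Cdc25c. Over all genes, limma called 3794 higher and 1330 lower between the lines. Relative to the median of all genes on each scale, in Kpna6 ΔIBB/ΔIBB against WT, Cdk1 lay 0.19, 0.19 and 0.16 higher (TMM, library size and TPM), and Ccnb2 0.13, 0.13 and 0.10 lower. The TMM and library size values match because that change of scaling shifts all genes about equally, so they are not separate evidence. Cdk1 lay above the median of all genes in the count fits and on the TPM scale.

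**Figure D3:**
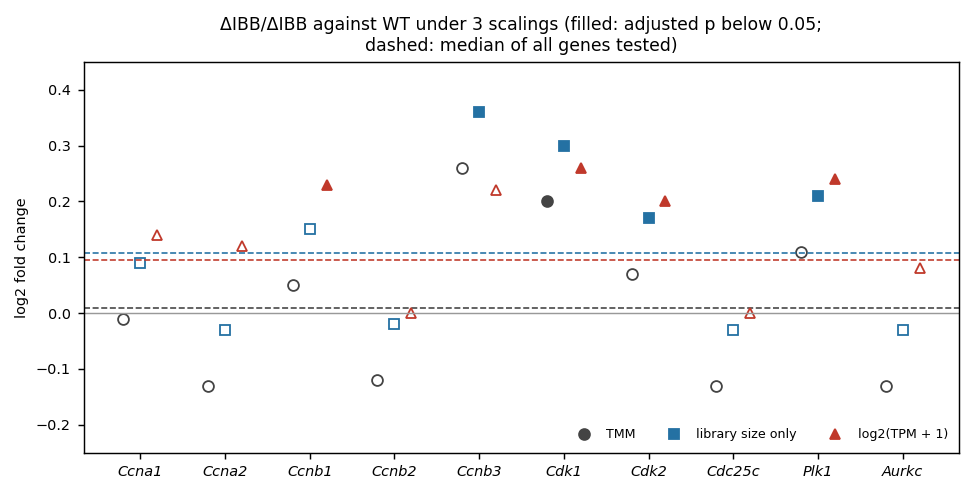
Log2 fold change of the 10 division genes in Kpna6 ΔIBB/ΔIBB against WT (3 samples each) under 3 scalings, filled where the adjusted p was below 0.05, with the median of all genes tested as a dashed line of the same colour. The medians are 0.009 with TMM, 0.107 with library size only and 0.096 with log2(TPM + 1), and Cdk1 is filled on each scale.

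Cell type markers moved as well. In Kpna6 ΔIBB/ΔIBB against WT, all 10 Sertoli cell markers were higher (median log2 fold change 0.58) and their summed level went from 836 to 905 TPM in WT to 1321 to 1585 TPM. All 8 round spermatid markers (median -0.49) and all 8 elongating spermatid markers (median -0.37) were lower. The summed elongating spermatid markers, which included the abundant protamine transcripts, were at 67711 to 77823 TPM in WT and 56479 to 64659 TPM in Kpna6 ΔIBB/ΔIBB. Of the 8 pachytene to diplotene markers, from the stages just before the divisions, 2 were called lower, and all 8 lay below 0 (median -0.11). Their summed levels were 5970 to 6336 TPM in WT and 6070 to 6118 TPM in Kpna6 ΔIBB/ΔIBB. On the log2(TPM + 1) scale the median of all genes lay at 0.096 in this comparison, so summed TPM and these fold changes are on different scales. Among 8 spermatogonial markers 3 were higher and 1 lower (113 to 127 TPM in WT, 149 to 171 TPM in Kpna6 ΔIBB/ΔIBB), and among 8 leptotene to zygotene markers likewise 3 were higher and 1 lower (400 to 415 and 425 to 444 TPM). Markers of macrophages (3 of 6), peritubular myoid cells (3 of 4) and Leydig cells (1 of 7) were higher and 0 lower. In Kpna6-/- against WT, 2 of 10 Sertoli cell markers were higher, with a median of 0.22 and all 10 above 0 (985 to 1070 TPM), 1 of 8 spermatogonial markers was lower, and 0 of the other marker genes tested were called. Between the lines, 5 of 8 spermatogonial, 3 of 4 peritubular myoid and 2 of 6 macrophage markers were higher in Kpna6 ΔIBB/ΔIBB, 1 of 8 leptotene to zygotene markers was lower, and of 7 Leydig cell markers 1 was higher and 1 lower. The part of cell composition in the values of the division genes was not tested.

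The transcripts behind a gene's count also differed. Cdk2 was estimated from 2 coding transcripts, of which Cdk2-202 holds an exon that Cdk2-201 skips. This exon is the sixth of 8 on the minus strand (GRCm38, chr10:128699976-128700119), and its 144 bases add 48 codons in frame. It is printed because it is what separates the 2 forms, read from the annotated transcript 5′ to 3′, with the exon in capitals and 15 bases of each neighbouring exon in lower case.

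Cdk2-202 exon: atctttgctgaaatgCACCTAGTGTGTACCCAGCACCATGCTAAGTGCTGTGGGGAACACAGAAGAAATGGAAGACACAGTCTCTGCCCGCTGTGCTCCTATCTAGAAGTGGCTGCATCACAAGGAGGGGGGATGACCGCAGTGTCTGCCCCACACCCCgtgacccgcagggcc

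Cdk2-201, the form without these codons, stood at 13.8, 12 and 9.99 TPM in WT, 19.3, 17.2 and 17.6 TPM in Kpna6 ΔIBB/ΔIBB and 14.4, 11.9 and 9.48 TPM in Kpna6-/- testes. The Kpna6 ΔIBB/ΔIBB samples were above all 6 others. Cdk2-202 was at 29.1 ± 3.67 TPM in WT, 29.1 ± 1.8 TPM in Kpna6 ΔIBB/ΔIBB and 29.4 ± 1.04 TPM in Kpna6-/- testes (SD, n = 3 each), and the groups overlapped. As a share of Cdk2, the short form made up 35.3, 29 and 23.4% in WT, 40.7, 35.6 and 38.7% in Kpna6 ΔIBB/ΔIBB and 33.7, 28.8 and 23.8% in Kpna6-/- testes. The gap between the highest WT share and the lowest Kpna6 ΔIBB/ΔIBB share was small beside the spread within WT. These values were singled out after they were seen and were not tested, since the split of reads between transcripts is itself an estimate.

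**Figure D4:**
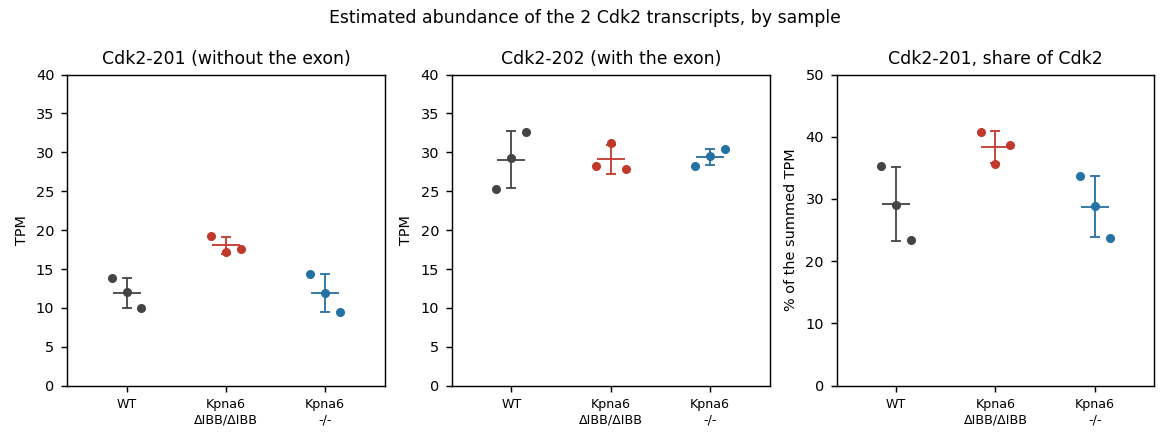
Estimated TPM of the 2 Cdk2 transcripts and the share of the shorter one in each testis (dots), with the mean and SD of 3 samples per group. Cdk2-201 lies at 17.2 to 19.3 TPM in Kpna6 ΔIBB/ΔIBB and at 9.48 to 14.4 TPM in the other 6 samples, whereas Cdk2-202 overlaps between the groups.

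Of Cdk1, 3 coding transcripts held 43.8 to 50.8% of the TPM in WT, 47.3 to 51.7% in Kpna6 ΔIBB/ΔIBB and 44.4 to 55.6% in Kpna6-/- testes, and the rest fell on transcripts that the annotation marks as retaining an intron. Coding Cdk1 transcripts alone summed to 25.8 ± 1.9 TPM in WT, 32.4 ± 1.35 TPM in Kpna6 ΔIBB/ΔIBB and 28.7 ± 3.08 TPM in Kpna6-/- testes (SD, n = 3 each). Counts of those transcripts gave 0.22 as the log2 fold change of Kpna6 ΔIBB/ΔIBB against WT (edgeR adjusted p = 0.0126). For Ccna2, coding transcripts held 66.8 to 69.1% in WT, 56.6 to 59.6% in Kpna6 ΔIBB/ΔIBB and 52.1 to 53.4% in Kpna6-/- testes, 3 ranges without overlap. These shares rest on 223 to 314 counts a library, and the split between transcripts is an estimate that was not tested. The intron-retaining Ccna2-202 alone ranged from 24.8 to 40.3% among the Kpna6-/- samples. Counted on coding transcripts alone, Ccna2 differed from WT by -0.22 in Kpna6 ΔIBB/ΔIBB (edgeR adjusted p = 0.107) and by -0.14 in Kpna6-/- (adjusted p = 0.542). The direction in Kpna6-/- was the opposite of that of the whole gene (0.06). Of the other members, Ccna1, Ccnb2, Ccnb3, Cdc25c, Cdk2 and Aurkc were estimated from coding transcripts alone.

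Genes of the division program are known to carry CCAAT boxes, bound by the factor NF-Y, and a cell cycle element called CHR, bound by the DREAM and MMB complexes. A window from 250 bases before to 50 bases after the start was given for 8 of the 10 genes (RefSeq, GRCm38.p6). Only the 250 bases before the start were searched, not the 50 after it. There the letters CCAAT, on either strand (reverse complement ATTGG), occurred in 6 of these 8 genes, namely Ccna1, Ccnb1, Ccnb2, Cdk1, Cdk2 and Plk1, and in 33.8% of 32851 promoters of all genes. The letters TTTGAA (CHR, reverse complement TTCAAA) occurred in 2 of 8, Cdk1 and Ccnb2, and in 16% of all promoters. The bases before the start are printed for these 2 genes, since they hold both motifs and Cdk1 was the member that rose. For Cdk1, 224 of the 250 bases searched are printed, without those nearest the start, which lie inside an annotated transcript. Capitals mark CCAAT or ATTGG and TTTGAA, and both genes lie on the minus strand (Cdk1 chr10:69352939-69353162, Ccnb2 chr9:70421555-70421804).

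Cdk1 promoter: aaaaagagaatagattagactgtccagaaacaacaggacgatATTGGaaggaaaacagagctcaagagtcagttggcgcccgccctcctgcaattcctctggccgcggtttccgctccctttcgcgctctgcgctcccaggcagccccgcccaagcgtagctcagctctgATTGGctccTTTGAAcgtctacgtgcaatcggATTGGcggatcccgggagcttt
Ccnb2 promoter: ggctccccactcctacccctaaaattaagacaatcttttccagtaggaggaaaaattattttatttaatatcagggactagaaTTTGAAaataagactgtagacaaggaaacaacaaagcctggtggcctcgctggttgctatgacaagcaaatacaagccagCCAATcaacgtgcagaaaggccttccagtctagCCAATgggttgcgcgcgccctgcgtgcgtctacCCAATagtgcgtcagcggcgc

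Each printed stretch held CCAAT or its reverse complement 3 times and TTTGAA 1 time. In Cdk1 all 3 boxes read ATTGG, and in Ccnb2 all 3 read CCAAT. A match is a run of letters and not evidence of binding.

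The genes that act with the 10 members were read out of the same fits, as 67 genes in 8 lists of which 66 were tested. In Kpna6 ΔIBB/ΔIBB against WT, 10 rose and 8 fell, which was 27.3% of those tested beside 36.6% of all genes. Their median absolute log2 fold change was 0.12. This near balance did not hold on other scales: library size alone called 20 up and 5 down, and limma on log2(TPM + 1) 14 up and 2 down. The calls over all 18797 genes tilted upward on these scales too. They were 5416 higher and 2326 lower with library size, and 3925 higher and 1622 lower with limma. In Kpna6-/- against WT, 0 of the 66 passed edgeR's test and 6 had an unadjusted p below 0.05, beside 2778 of all 18681 genes. DESeq2 called 1 of the 66, Pttg1, which encodes the separase inhibitor securin (-0.23, adjusted p = 0.0421), as did edgeR without WT replicate 3 (-0.30, adjusted p = 0.0253).

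Of the kinases and phosphatases that set CDK phosphorylation, 1 of 7 rose and 2 fell. Cdc25a, a CDC25 phosphatase with 116 ± 11 CPM in WT, fell to 95.9 ± 3.56 CPM in Kpna6 ΔIBB/ΔIBB testes (SD, n = 3 each; log2 fold change -0.27, edgeR adjusted p = 0.0076), a call lost with limma on log2(TPM + 1) (-0.17, adjusted p = 0.169). Cdc25b, a further member of this family, rose from 2.53 ± 0.339 to 3.61 ± 0.271 CPM (0.52, edgeR adjusted p = 0.0239), and Wee1, which adds the inhibitory phosphate, fell from 52.5 ± 1.29 to 47 ± 0.95 CPM (-0.16, adjusted p = 0.0257). The calls of Cdc25b and Wee1 were each lost in 8 of 15 alternatives, among them the omission of single samples, with log2 fold changes from 0.43 to 0.84 and from -0.17 to -0.03.

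Among 9 CDK subunits, partners and inhibitors 2 rose and 1 fell. Spdya, a non-cyclin activator that tethers CDK2 to telomeres in spermatocytes, had 97.3, 95.9 and 85.5 CPM in WT and 68.4, 67.7 and 74.8 CPM in Kpna6 ΔIBB/ΔIBB testes. The groups did not overlap, and its log2 fold change of -0.40 ± 0.06 SE (edgeR adjusted p = 0.000539) was past the threshold in all 15 alternatives, from -0.45 to -0.24. The CDK inhibitor gene Cdkn1b rose from 16.2 ± 1.89 to 21 ± 1.85 CPM (0.39, edgeR adjusted p = 0.0105), also in all 15 alternatives. Cdkn2d, another inhibitor, rose by 0.20 (edgeR adjusted p = 0.0191), a call lost when WT replicate 1 or 3 or Kpna6 ΔIBB/ΔIBB replicate 1 or 2 was left out (lowest 0.16).

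Of 7 G1 and S phase cyclins and CDKs, 2 rose and 2 fell. Ccnd2 (cyclin D2) rose from 8.07 ± 0.778 to 10.9 ± 1.13 CPM (log2 fold change 0.44, edgeR adjusted p = 0.0099) and its kinase Cdk4 from 30.1 ± 2.47 to 39.8 ± 1.2 CPM (0.41, adjusted p = 0.000804), each in all 15 alternatives. Ccne2, a cyclin partner of CDK2, fell by 0.31 on the log2 scale with TMM (edgeR adjusted p = 0.0123) and lay 0.12 higher on the log2(TPM + 1) scale. Among proliferation markers, 1 of 5 rose, the replication helicase gene Mcm2 (0.41, edgeR adjusted p = 0.00231).

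Polo and Aurora kinases and their partners had 3 of 10 genes higher and 0 lower. Tpx2, the spindle activator of Aurora A, rose from 59 ± 2.2 to 69.6 ± 1.39 CPM (log2 fold change 0.24, edgeR adjusted p = 0.00258). The mitotic Aurora kinase gene Aurkb and Plk2 rose by 0.30 each (edgeR adjusted p = 0.0288 and 0.0246), and each call was lost without WT replicate 1 or 3 or without Kpna6 ΔIBB/ΔIBB replicate 1 or 2, at no less than 0.25. Anaphase-promoting complex genes had 1 of 14 higher, Anapc2 (0.21), and 1 lower, Anapc10 (-0.36, edgeR adjusted p = 0.00133). The checkpoint kinase gene Bub1 was the 1 of 8 spindle checkpoint genes that fell (-0.27, edgeR adjusted p = 0.00361), and the meiotic cohesin gene Rec8 the 1 of 6 kinetochore and centromere genes (-0.29, edgeR adjusted p = 0.0059). With limma on log2(TPM + 1) the calls of Anapc2 (0.23, adjusted p = 0.07), Anapc10 (-0.22, adjusted p = 0.0613), Bub1 (-0.30, adjusted p = 0.0538) and Rec8 (-0.17, adjusted p = 0.0698) were lost, and with length-scaled counts those of Tpx2, Aurkb, Plk2 and Anapc2.

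**Figure D5:**
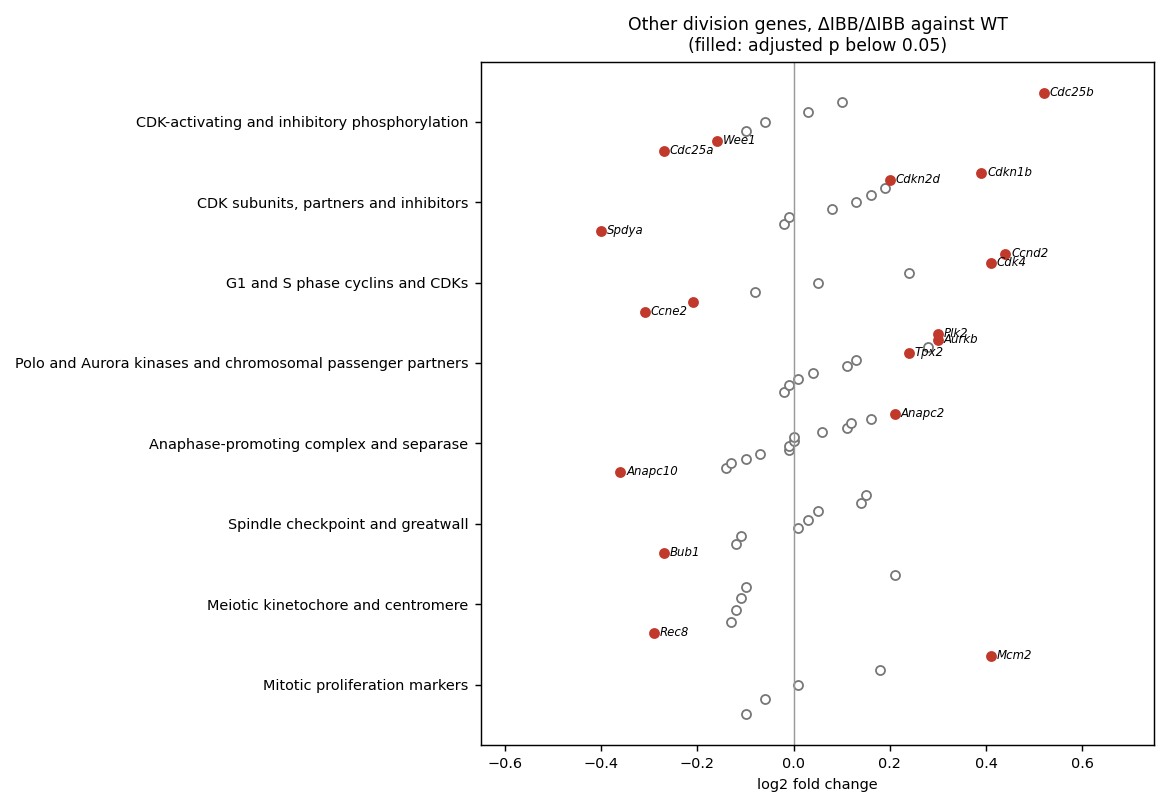
Log2 fold change of the 66 tested partner genes of the division kinases in Kpna6 ΔIBB/ΔIBB against WT (1 dot a gene, 3 samples per group), by list, filled where edgeR's adjusted p was below 0.05. The 10 filled dots to the right of 0 reach 0.52 (Cdc25b) and the 8 to the left reach -0.40 (Spdya).

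With Kpna6-/- as the reference, Kpna6 ΔIBB/ΔIBB testes had 11 of the 66 genes higher and 7 lower, beside 30.3% of all genes called. By library size only the split was 25 higher and 3 lower, and by limma on log2(TPM + 1) it was 15 higher and 1 lower. All 18752 genes tested tilted the same way. They gave 4931 higher and 2016 lower by library size, and 3794 higher and 1330 lower by limma. Spdya was lower (log2 fold change -0.33, edgeR adjusted p = 0.00053), a call lost with limma on log2(TPM + 1) (-0.14, adjusted p = 0.0651), and Ccnd2 (0.53, adjusted p = 0.00255), Cdk4 (0.25, adjusted p = 0.00338) and Aurka (0.20, adjusted p = 0.00687) were higher. Pttg1 was higher by 0.22 (edgeR adjusted p = 0.00247), with 55.5 ± 0.889 CPM in Kpna6 ΔIBB/ΔIBB, 47.6 ± 0.475 CPM in Kpna6-/- and 55.8 ± 5.08 CPM in WT testes (SD, n = 3 each).

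To describe the profile across the 9 samples, the genes with the most similar pattern were sought among 16307 genes, by the root mean square difference of log2 CPM after centring each gene on its own mean. Closest to Ccna1 were Tfg (0.019), Lsm8 (0.019) and Saal1 (0.024), where Ccna1 itself varied by 0.056 around its mean. Closest to Cdk1 were Rpl7l1 (0.030), Myl12b (0.030) and Hras (0.033), where Cdk1 varied by 0.091. Myl12b had a mean of 30.6 CPM in WT, 35.4 CPM in Kpna6 ΔIBB/ΔIBB and 34.7 CPM in Kpna6-/- testes, where Cdk1 had 26.6, 30.5 and 29.5 CPM.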

How the data were processed

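Whole testes of 9 mice were measured by RNAseq of poly(A) RNA without strand marking. The authors assigned reads to mm10 transcripts with kallisto (0.45 in the submitters' processing notes). They deposited, per transcript, estimated counts that are not normalized between samples. The TPM values they deposited are scaled to a fixed total within each library. Of 96626 transcripts, 95301 were assigned to 32035 genes by GENCODE M21 identifiers (GRCm38), and both values were summed per gene. The study's sleuth test was replaced by edgeR 4.0.16 (R 4.3.3, limma 3.58.1) on the estimated counts. Counts were rounded, genes kept by filterByExpr and TMM factors computed. The two-sided quasi-likelihood test used the 6 samples compared. Benjamini-Hochberg adjustment covered all genes tested, with a threshold of 0.05. CPM values use TMM factors over all 9 samples. Alternatives were DESeq2 1.42.0, other scalings and filters, a replicate block, a joint fit of all 9 samples, limma on TPM, length-scaled counts, summed near-identical genes (95% identity over at least 100 bases) and each sample left out in turn, and, chosen after seeing the data, coding transcripts alone. All 10 members were named, and of each partner list up to 3 called genes with the largest fold change and at least 1 TPM. The members and lists were chosen with earlier results of these data known. Depth was 24859751 to 31484692 counts. The procedure was tested on simulated data.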

Additional observations from a re-analysis of the deposited data

How the results depend on the processing

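With 3 samples per group, small differences between transcripts could not be resolved, and depth was not varied. Of the 10 division genes, 0 were called in Kpna6-/- against WT under each alternative run. In Kpna6 ΔIBB/ΔIBB against WT, 2 were called with DESeq2, with its size factors in edgeR and with all 9 samples in 1 fit, 4 with library size only and with limma on log2(TPM + 1) or log2(TPM + 0.1), 0 with length-scaled counts and 0 to 2 with a sample left out. Between the lines, 4 were called with library size only and 5 with limma, all higher and without Cdc25c, 0 with length-scaled counts and 0 to 1 with a sample left out. For partner genes, 28 were called between the lines with library size only (beside 6947 of all 18752 genes tested), and 1 in Kpna6-/- against WT with DESeq2 and without a filter (0 to 1 with a sample left out). Over all genes, Kpna6-/- against WT gave 299 calls, 477 with DESeq2, 624 without a filter, 70 with length-scaled counts, 32 or 33 with limma and 92 (without Kpna6-/- replicate 1) to 518 (without WT replicate 1) with a sample left out. Labels do not pair the samples, and same-numbered samples correlated by at most 0.083. With the replicate block, calls over all genes were 6793, 229 and 6032 in place of 6874, 299 and 5673, Cdk1 kept 0.20 in Kpna6 ΔIBB/ΔIBB against WT and Plk1 in Kpna6-/- had 0.00. The cause of the changes with scaling was not tested. Differences that edgeR with TMM did not call turned direction as follows (log2 fold changes). Length-scaled counts gave 0.08 for Aurkc between the lines, 0.03 for Ccna1 and 0.03 for Ccna2 in Kpna6 ΔIBB/ΔIBB, and 0.05 for Ccnb1 in Kpna6-/-. Library size gave 0.09 for Aurkc and 0.02 for Ccnb2 between the lines, 0.09 for Ccna1 in Kpna6 ΔIBB/ΔIBB and 0.01 for Plk1 in Kpna6-/-. Limma (offset 1, then 0.1) gave 0.20 and 0.20 for Aurkc and 0.07 and 0.07 for Ccnb2 between the lines, 0.08 and 0.09 for Aurkc, 0.14 and 0.14 for Ccna1, 0.12 and 0.13 for Ccna2 and 0.00 and 0.00 for Ccnb2 in Kpna6 ΔIBB/ΔIBB, and 0.04 and 0.04 for Ccnb1 in Kpna6-/-. Summing near-identical genes gave 0.04 for Aurkc between the lines and 0.01 for Ccna2 in Kpna6 ΔIBB/ΔIBB. Coding transcripts alone gave -0.14 for Ccna2 and 0.00 for Plk1 in Kpna6-/-, and Plk1 was at 0.00 with all 9 samples and without a filter. With a sample left out, the values ran from -0.08 to 0.05 for Aurkc between the lines, from -0.06 to 0.02 for Ccna1 and -0.01 to 0.12 for Ccnb1 in Kpna6 ΔIBB/ΔIBB, and in Kpna6-/- from -0.07 to 0.05 for Ccnb1, -0.07 to 0.14 for Ccnb3, -0.01 to 0.04 for Cdk2 and -0.05 to 0.08 for Plk1.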

Other observations

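Ratios of counts within a library do not depend on scaling between libraries. They were chosen after the values were seen, as 4 ratios in 2 lines. Ccnb1 stood to Ccnb2 as 0.477, 0.506 and 0.456 in WT, 0.542, 0.561 and 0.522 in Kpna6 ΔIBB/ΔIBB and 0.506, 0.488 and 0.485 in Kpna6-/- testes. All 3 Kpna6 ΔIBB/ΔIBB values were above all 3 WT values (two-sided exact permutation test, p = 0.1, the smallest that 3 against 3 allows, and 0.267 after adjustment over 8 tests). Cdk1 stood to Cdk2 as 0.383, 0.368 and 0.352 in WT, 0.403, 0.384 and 0.423 in Kpna6 ΔIBB/ΔIBB and 0.394, 0.414 and 0.394 in Kpna6-/- testes, again without overlap between either line and WT (exact permutation p = 0.1 each, adjusted 0.267). For Kpna6 ΔIBB/ΔIBB only 0.384 against 0.383 parted the groups, a narrow gap beside SDs of 0.0196 in that line and 0.0154 in WT. The ratios of Ccna1 to Ccna2 and of Cdk1 to Ccnb1 overlapped WT in both lines.

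Of the transcripts of Cdk1, the intron-retaining Cdk1-203 was at 4.75, 7.58 and 9.69 TPM in WT, 10.3, 5.26 and 9.01 TPM in Kpna6 ΔIBB/ΔIBB and 3.53, 2.41 and 3.26 TPM in Kpna6-/- testes. The Kpna6-/- samples were below all 6 others. This transcript was singled out among 39 of the 10 genes after its values were seen, and no test was made.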
